A study of Homo sapiens with 9 samples.

Results

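The 10 genes described here encode the nuclear lamina and the proteins that tie it to the inner nuclear membrane. They were chosen by name, with earlier results of these data known: LMNA, LMNB1, LMNB2, LBR, EMD, TMPO, LEMD3, BANF1, SUN1 and SUN2. All 10 were found among the 13052 genes of each of the authors' deposited tables. The tables compare XRCC1-KO and APE1-KO derivatives of MCF10A, a human breast epithelial line that is not transformed, each against Control-KO cells. Poly(A) RNA was sequenced from 3 XRCC1-KO, 3 APE1-KO and 3 Control-KO libraries. XRCC1 is the scaffold protein of single-strand break repair, and APE1, the product of APEX1, incises DNA where a base is missing. The XRCC1-KO and APE1-KO genotypes are labelled as knockouts, and the Control-KO cells, which carry Cas9, are labelled wild type. All groups were grown as untreated cultures, as far as the labels say, in medium with horse serum, epidermal growth factor, cholera toxin, insulin and hydrocortisone. The labels do not say whether a knockout line was a single clone or a pool, nor whether replicates are separate cultures. The p-values therefore reflect the spread among these libraries, which may be technical.

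The lamina is a meshwork of intermediate filament proteins, the A-type and B-type lamins, under the inner nuclear membrane. Membrane proteins with a LEM domain bind the small DNA-bridging protein BAF, LBR binds B-type lamins and heterochromatin, and SUN proteins link the lamina across the envelope to the cytoskeleton. Loss of lamin B1 is a widely used marker of senescent cells, and a weakened lamina is known to let nuclei rupture and chromatin leak into the cytosol. Chromatin leakage and senescence of cells without XRCC1 are named in the title of the series, so the comparison asks how transcripts of the envelope differ in each knockout.

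Values per library were not analysed here, and the depth of each library is unknown. The targeted gene APEX1 fell by 1.5 in APE1-KO cells on the log2 scale (adjusted p = 7.17e-08 in the authors' deposited table). XRCC1 stood at 0.14 in the deposited XRCC1-KO table (adjusted p = 0.779); a Cas9 frameshift need not lower a transcript, so this value does not check the XRCC1-KO label. All 10 markers of basal and mammary epithelium had a row in the tables, with mean levels from 6.34 to 12.1 log2 CPM, the library-scaled read count. Of the markers of other cell types, 2 of 6 for fibroblasts, 3 of 6 for leukocytes and 1 of 5 for endothelium had a row, at mean levels from -0.39 to 5.98 log2 CPM. In bulk RNA, fewer cells that express a gene and less RNA per cell cannot be told apart.

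All 10 lamina and membrane genes stood above the median of all genes in log2 CPM not divided by length. Their mean levels ran from 5.88 log2 CPM for EMD to 9.17 for LMNA, against a median of 4.88 over all 13052 genes, and 69.7% of all genes lay below the lowest of them. Levels of different genes can be set side by side only per length, so the mean was also divided by the median length of each gene's transcripts. On that scale LMNA, which encodes lamins A and C, stood highest at 8.08 log2 CPM per kilobase. TMPO, encoding the LAP2 proteins, followed at 6.94, BANF1, encoding BAF, at 6.68, LMNB2 at 6.50 and LMNB1 at 6.46. EMD, encoding emerin, stood at 5.65, SUN1 at 5.35, LBR at 5.22 and SUN2 at 4.98 log2 CPM per kilobase. LEMD3, encoding MAN1, was lowest at 3.83, close to the median of 3.40 over all genes with a length. The tables give 1 mean per gene over the libraries, so no spread over libraries can be set on this order, and neighbours such as LMNB2 and LMNB1 cannot be ranked.

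**Figure D1:**
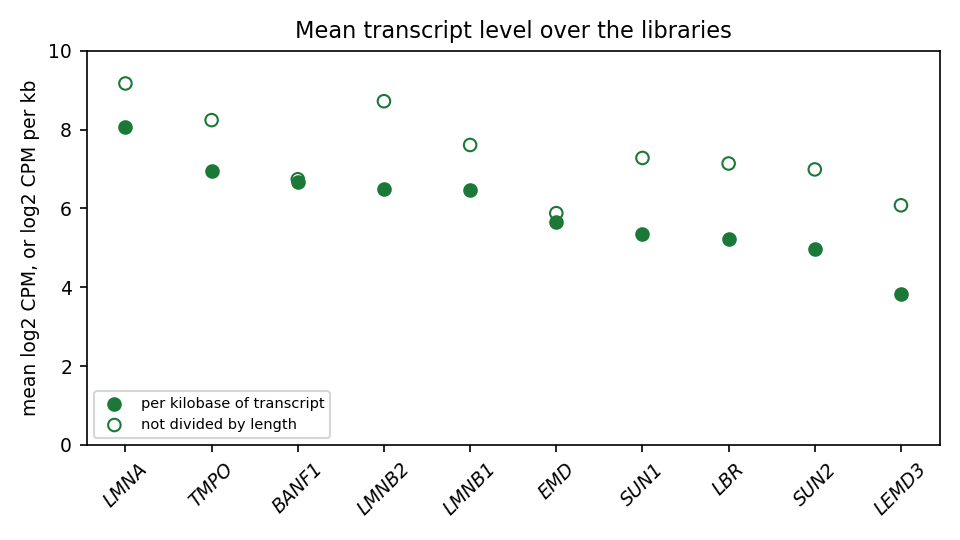
Mean level of each gene, as log2 CPM per kilobase of transcript (filled points) and as log2 CPM not divided by length (open points), ordered by level per kilobase. LMNA stands highest on both scales, and LEMD3 is lowest per kilobase at 3.83.

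In the XRCC1-KO table the B-type lamins and SUN2 had the lowest values relative to their error, A-type lamin and BAF transcripts lay above 0, and no gene of the set passed adjusted p 0.05. Of the 10 genes, 7 had a log2 fold change below 0 and 3 above 0, with a median of -0.10, a lowest value of -0.22 and a highest of 0.15. Over all 13052 genes the median was -0.00085, with 50.3% below 0. Among the 6231 genes with a mean of at least 5 log2 CPM it was -0.0167, with 55.4% below 0. Both genes with an unadjusted p under 0.05, LMNB2 and SUN2, lay below 0. That is 2 of 10, where 5.96% of all genes had such a p in either direction and 2.7% had it with a value below 0; no test was made of that count. Adjusted p-values of the set ran from 0.76 to 0.931, and no gene at all passed adjusted p 0.05 in that table (0 of 13052).

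The lamins had values on both sides of 0. LMNB2 (ENSG00000176619.6, hg19 chromosome 19, 2427636 to 2456994, minus strand), a B-type lamin, stood at a log2 fold change of -0.22 (standard error 0.07, p = 0.00888 and adjusted p = 0.76 in the authors' deposited table). This places its transcript at 86.1% of Control-KO, with a 95% interval from 77.4% to 95.7%, and 119 genes of the table had a smaller p. LMNB1 (ENSG00000113368.7, hg19 chromosome 5, 126112315 to 126172712, plus strand), the other B-type lamin, stood at -0.15 (standard error 0.07, p = 0.0562 and adjusted p = 0.76 in the authors' deposited table). Its transcript was at 90.4% of Control-KO, and its interval, from 81.4% to 100.3%, reaches just above the control level. LMNA (ENSG00000160789.15, hg19 chromosome 1, 156052364 to 156109880, plus strand) lay on the other side of 0, at 0.15 or 110.7% of Control-KO (interval 95.8% to 127.8%, p = 0.156 and adjusted p = 0.76 in the authors' deposited table). The authors' tables hold 1 value per gene, so lamin A and lamin C, which LMNA makes by splicing, cannot be separated. Relative to LMNA, the log2 fold change of LMNB1 was lower by a difference of -0.29 and that of LMNB2 by -0.36 in the XRCC1-KO table. These differences between genes have no error, because the covariance between genes is not known.

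LBR, the lamin B receptor, which is also a sterol reductase, had a value of -0.12 (interval -0.30 to 0.065; p = 0.188 per the authors' deposited table). Among the LEM domain genes, TMPO had a deposited value of -0.21, or 86.5% of Control-KO, close to that of LMNB2. Its standard error of 0.11 was the largest of the set, so its interval runs from 73.1% to 102.4% (p = 0.0878 and adjusted p = 0.76 in the authors' deposited table). EMD stood at 0.066 (interval -0.13 to 0.27) and LEMD3 at -0.041 (interval -0.26 to 0.17) in that deposited table. BANF1, whose product coats and bridges DNA at the envelope, stood at 0.14 or 110.0% of Control-KO (interval 95.8% to 126.4%, p = 0.163) in the table the authors deposited. TMPO and BANF1 have 2 and 5 pseudogenes named after them in the gene table; whether reads were shared with those copies was not tested, so both values are uncertain to that extent. EIF1AD overlaps the gene span of BANF1 by 98 bases on the opposite strand. The authors' deposited value of EIF1AD for XRCC1-KO was 0.13 (p = 0.155).

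Both SUN genes, which encode the inner membrane part of the LINC bridge, had values below 0. SUN2 (ENSG00000100242.11, hg19 chromosome 22, 39130730 to 39190148, minus strand) stood at -0.21 (standard error 0.08, p = 0.0155 and adjusted p = 0.76 in the authors' deposited table). Its transcript was at 86.3% of Control-KO, with an interval from 77.0% to 96.8%, which leaves out 100%. SUN1 had a value of -0.084 (interval -0.25 to 0.078), with an adjusted p of 0.794 in the authors' deposited table. Both SUN genes and LMNB2, like BANF1, overlap other genes of the tables by their whole gene spans, introns included. How many bases of mature transcript are shared was not examined, and whether counting used strand is not given in the sources used here. DNAL4 shares 15636 bases with the span of SUN2 on the same strand and GTPBP1 shares 3575 bases on the opposite strand. The authors' deposited values for XRCC1-KO were -0.14 (p = 0.306) and -0.12 (p = 0.177). GET4 shares 19884 bases with the span of SUN1 and TIMM13 shares 257 bases with that of LMNB2, on the same strand. For these 2 genes the authors' deposited values were 0.25 (p = 0.0104) and 0.047 (p = 0.741). The part of overlapping genes in the values of SUN2, SUN1, LMNB2 and BANF1 was not tested.

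**Figure D2:**
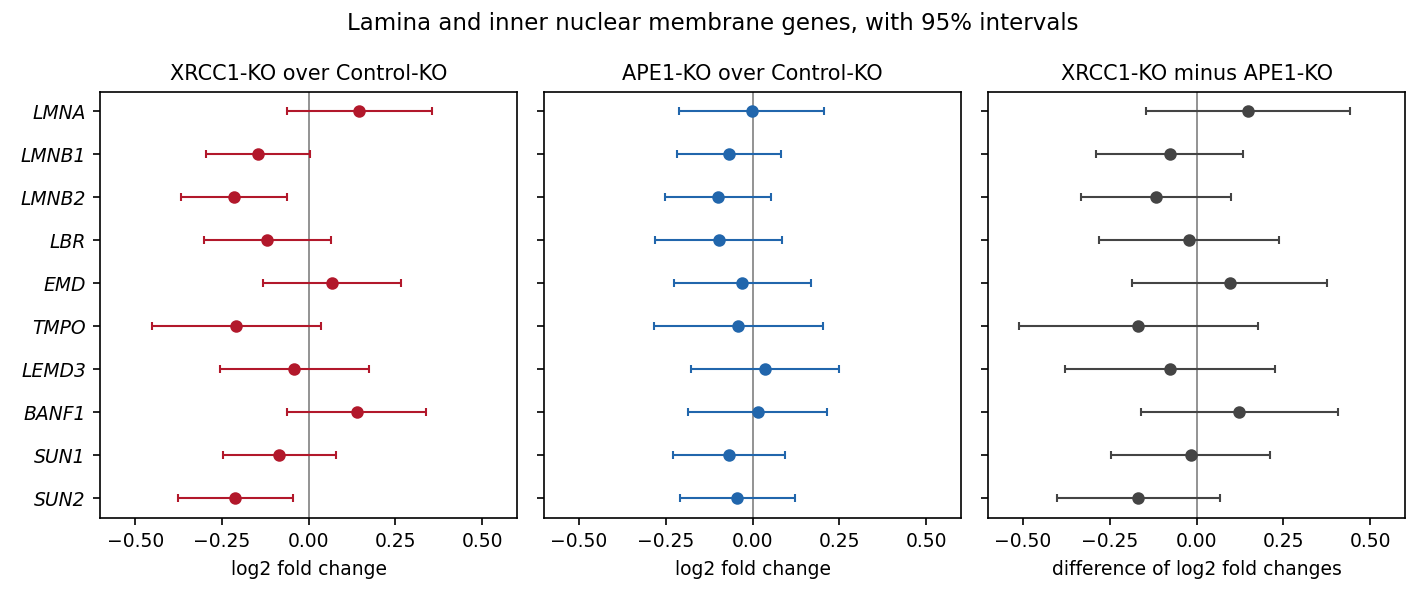
Log2 fold changes of the 10 genes in XRCC1-KO over Control-KO (left), in APE1-KO over Control-KO (middle) and their difference, XRCC1-KO minus APE1-KO (right), with 95% intervals from recovered standard errors. In the left panel the intervals of LMNB2 and SUN2 leave out 0; in the other 2 panels every interval includes 0. The right panel uses standard errors with no covariance; with that of a balanced design SUN2 had an unadjusted p of 0.0476.

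XRCC1-KO values also moved with transcript length and GC content. Across all genes with a known length, XRCC1-KO values were higher for short and GC-rich transcripts, and a smooth trend over both was fitted and removed. The genes above 0 had the shortest transcripts of the set: BANF1 transcripts have a median length of 1040.5 nucleotides, EMD 1172.5 and LMNA 2134. LMNB1, below 0, came next at 2225. GC content was 56.5% for BANF1, 60.4% for EMD and 61.8% for LMNA. It was as high for LMNB2 (61.4%) and SUN2 (62.1%), which lay below 0 and have longer transcripts, of 4671 and 4022 nucleotides. The trend alone gave 0.12 for BANF1, 0.13 for EMD and 0.070 for LMNA. With it removed, BANF1 stood at 0.014, EMD at -0.064 and LMNA at 0.076. LBR, LEMD3 and SUN1, with long or GC-poor transcripts, had trend values of -0.088, -0.093 and -0.053, and then stood at -0.031, 0.052 and -0.032. For LMNB1, LMNB2 and SUN2 the trend was near 0, at 0.0047, 0.00057 and 0.012. Their values were -0.15, -0.22 and -0.22 without it, at unadjusted p of 0.0496, 0.00873 and 0.0113, so LMNB1 came just under 0.05, while TMPO stood at -0.17 with a p of 0.169. The count of such p-values was then 3 of 10, all with values below 0. Over all genes 4.39% had one in either direction and 2.09% had one with a value below 0. Each of the 10 genes had an adjusted p of 0.997. The median of the set was then -0.048, against -0.10 as deposited.

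**Figure D3:**
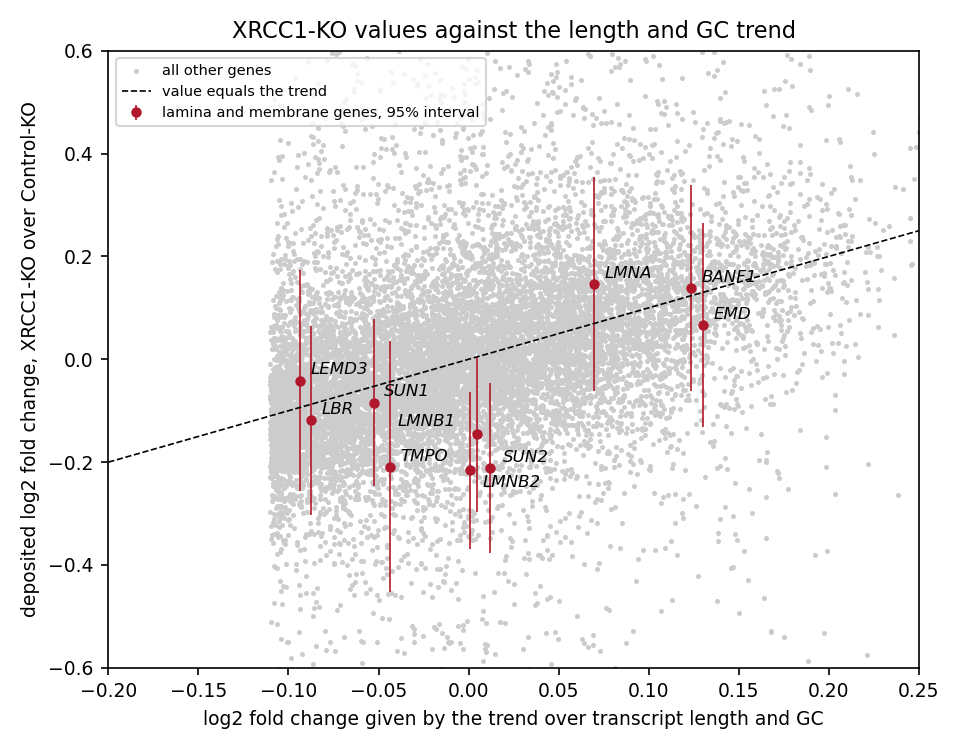
Deposited log2 fold change in XRCC1-KO over Control-KO (vertical axis) against the value that the trend over transcript length and GC content gives each gene (horizontal axis); grey points are all other genes within the axes, bars are 95% intervals and the dashed line marks equality. BANF1, EMD and LMNA sit at the right, where the trend is positive, while LMNB1, LMNB2 and SUN2 sit near a trend of 0 and below the line.

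Genes of mitosis, a phase in which LMNB1 and TMPO transcripts are also known to be high in cycling cells, also lay low in XRCC1-KO. All 32 measured genes of that list lay below 0 in the XRCC1-KO comparison, at a median of -0.16, and 8 had an unadjusted p under 0.05, where 2.7% of all genes had one with a value below 0. With the length and GC trend removed all 32 again lay below 0, at a median of -0.12, and 4 had an unadjusted p under 0.05. Over all genes 4.39% then had one in either direction and 2.09% had one with a value below 0. The mitosis list was chosen with earlier results of these data known, and no test was made of these counts. CDKN1A, the gene of the cell cycle inhibitor p21, stood at 0.69 (adjusted p = 0.123 in the authors' deposited table). In APE1-KO the mitosis list had a median of -0.0033 and CDKN1A a value of 0.38 (adjusted p = 1 in the authors' deposited table). The part of cell cycle state in the values of LMNB1, LMNB2 and TMPO was not tested.

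Because LMNB2 and SUN2 had the smallest p-values of the set, and LMNB1 and TMPO lay near them, the start regions of these 4 genes are shown. RefSeq windows from 250 bases before to 50 bases after a transcript start (GRCh38.p14) were on hand for 9 of the 10 genes, 15 windows in all. Both strands were searched for TTTGAA, a core of the cell cycle genes homology region (CHR), and for the CCAAT box. TTTCCCGC, a sequence bound by E2F factors, was also searched for on both strands. Variants of these sequences were not searched for, so a window without a match may still hold one. For SUN2 and LMNB1, which have more than 1 window, the window shown is the one with a match. The other windows of SUN2 and the first window of LMNB1 held none of the searched sequences and are not shown. Capitals in the windows mark the CHR core and the CCAAT box on either strand, so that SUN2 shows the CHR core as TTCAAA and LMNB1 shows the CCAAT box as ATTGG.
LMNB2, chr19:2456910-2457209, minus strand: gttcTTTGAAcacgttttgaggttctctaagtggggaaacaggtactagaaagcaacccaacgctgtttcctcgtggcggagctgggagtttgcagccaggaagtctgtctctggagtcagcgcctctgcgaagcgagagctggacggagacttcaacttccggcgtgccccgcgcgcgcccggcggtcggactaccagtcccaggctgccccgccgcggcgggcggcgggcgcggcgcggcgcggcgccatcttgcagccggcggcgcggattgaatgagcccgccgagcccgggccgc
SUN2, first start, chr22:38755949-38756248, minus strand: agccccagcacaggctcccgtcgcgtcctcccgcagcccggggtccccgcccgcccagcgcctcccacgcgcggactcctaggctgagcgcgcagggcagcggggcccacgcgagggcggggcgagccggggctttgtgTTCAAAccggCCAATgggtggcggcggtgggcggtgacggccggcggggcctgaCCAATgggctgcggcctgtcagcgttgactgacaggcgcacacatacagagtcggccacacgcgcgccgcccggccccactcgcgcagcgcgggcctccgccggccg
LMNB1, second start, chr5:126776886-126777185, plus strand: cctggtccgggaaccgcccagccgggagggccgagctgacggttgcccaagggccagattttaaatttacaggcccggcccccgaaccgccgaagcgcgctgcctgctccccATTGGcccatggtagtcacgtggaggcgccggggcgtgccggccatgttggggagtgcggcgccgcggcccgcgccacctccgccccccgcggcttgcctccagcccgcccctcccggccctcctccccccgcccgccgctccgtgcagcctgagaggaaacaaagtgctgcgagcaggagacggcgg
TMPO, first start, chr12:98515323-98515622, plus strand: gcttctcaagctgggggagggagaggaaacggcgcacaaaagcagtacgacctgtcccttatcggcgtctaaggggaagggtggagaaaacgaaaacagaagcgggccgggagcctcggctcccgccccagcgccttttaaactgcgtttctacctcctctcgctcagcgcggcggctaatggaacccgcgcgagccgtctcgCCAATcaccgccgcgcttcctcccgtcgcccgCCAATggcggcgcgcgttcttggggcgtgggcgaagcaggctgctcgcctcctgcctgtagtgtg

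TTTGAA was found in 2 of the 15 windows, the ones shown for LMNB2 and SUN2, and in 15.2% of all 35116 windows. In LMNB2 it begins at position -246, and in SUN2 at position -111, counted from the transcript start. CCAAT was found in 7 of the 15 windows, from 6 genes, against 34.6% of all windows: once each in the LMNB1 window above and in windows of LMNA and LEMD3, and at 2 places each in those of TMPO, SUN2 and EMD. In SUN2 the CCAAT copies begin at -101 and -57, and in the TMPO window shown at -47 and -15. The 2 windows of TMPO overlap and hold the same 2 copies, so TMPO gives 2 of the 7 windows. TTTCCCGC was found in 2 of the 15 windows, of LMNA and LEMD3, and in 1.63% of all windows. Matches to different motifs share no base in these windows. The motifs were chosen with the fold changes known, and a match describes letters only.

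In APE1-KO no gene of the set passed either threshold, and the values lay in a narrower range than in XRCC1-KO. Log2 fold changes ran from -0.099 for LMNB2 to 0.036 for LEMD3, as the authors deposited them, with a median of -0.043, 8 below 0 and 2 above. Over all genes the median was -0.00098, with 50.5% below 0. Among genes with a mean of at least 5 log2 CPM it was 0.00165, with 48.8% below 0. No gene of the set had an unadjusted p under 0.05, where 1.45% of all genes did. None passed adjusted p 0.05, and the 1 of 13052 genes that did (0.00766%) was the targeted gene APEX1. The smallest p of the set was 0.19, for LMNB2. Each of the 10 adjusted p-values was 1.

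LMNB2 was at 93.4% of Control-KO in APE1-KO (interval 84.0% to 103.8%) and LMNB1 at 95.4% (interval 86.0% to 105.8%). LMNA was at 99.8% (interval 86.4% to 115.3%). Per the authors' deposited table, LBR stood at -0.098 (interval -0.28 to 0.085), SUN1 at -0.068 (interval -0.23 to 0.095) and SUN2 at -0.044 (interval -0.21 to 0.12). Among the LEM domain genes and their partner, TMPO stood at -0.042, EMD at -0.029, LEMD3 at 0.036 and BANF1 at 0.015 in that deposited table. Over the 10 genes, the intervals of APE1-KO together span 82.1% to 118.9% of Control-KO, and those of XRCC1-KO span 73.1% to 127.8%. A change beyond these bounds would lie outside the 95% interval of every gene.

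Set directly against each other, XRCC1-KO and APE1-KO gave no gene of the set past adjusted p 0.05. With no covariance 1 of 13051 genes reached it (0.00766%). On that same error no gene of the set had an unadjusted p under 0.05, as 0.743% of all genes did. The difference of the log2 fold changes, XRCC1-KO minus APE1-KO, holds no control library, but its standard error, taken with no covariance, counts the Control-KO spread in both comparisons. With the standard error of a balanced design SUN2 had an unadjusted p of 0.0476 (adjusted p = 0.73) and 5.49% of all genes had an unadjusted p under 0.05. The difference ran from -0.17 for SUN2 to 0.15 for LMNA. With no covariance, unadjusted p-values ran from 0.148 for SUN2 to 0.877 for SUN1, with each adjusted p at 1.00. For LMNB1 the difference was -0.078 (interval -0.29 to 0.13) and for LMNB2 -0.12 (interval -0.33 to 0.099). TMPO differed by -0.17, with an interval from -0.51 to 0.18. These intervals, with no covariance, are wider than those of a balanced design would be. They allow differences of either sign, so they do not show that the knockouts act alike.

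Other genes of the envelope were read from lists of its known components. LINC partners, the KASH domain and torsin proteins that work with SUN1 and SUN2, had 6 measured genes of 9. Their median was -0.10 in XRCC1-KO and -0.054 in APE1-KO, and a single gene had an unadjusted p under 0.05, 1 of 6 in XRCC1-KO and 0 of 6 in APE1-KO, where 5.96% and 1.45% of all genes had one. This was SYNE3, encoding nesprin-3, at -0.46 in XRCC1-KO (p = 0.0497 and adjusted p = 0.76 in the authors' deposited table), a gene of low abundance at 1.20 log2 CPM. Other inner nuclear membrane proteins, 16 measured of 17, had a median of -0.0070 in XRCC1-KO and 0.0043 in APE1-KO. None of the 16 had an unadjusted p under 0.05 in XRCC1-KO, and 1 did in APE1-KO, where TMEM38A, a cation channel gene, stood at -0.50 in the authors' deposited table (p = 0.0454, adjusted p = 1). Over all genes the shares were 5.96% in XRCC1-KO and 1.45% in APE1-KO, and with the trend removed TMEM38A stood at -0.48 with an unadjusted p of 0.0530.

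Lamin processing enzymes and lamin partners, 15 measured of 15, had a median of -0.039 in XRCC1-KO and -0.0030 in APE1-KO. NARF, whose product binds the prenylated end of prelamin A, stood at 0.36 or 1.29-fold in XRCC1-KO (interval 0.15 to 0.57; p = 0.00233 and adjusted p = 0.76 in the authors' deposited table). It was the 1 gene of the 15 with an unadjusted p under 0.05 there, a share near the 5.96% of all genes, and it stood at 0.30 with the length and GC trend removed. A list of BAF regulators held kinase and phosphatase genes, with TREX1 and CGAS, whose products bind DNA. Its genes, 8 measured of 8, had a median of 0.0058 in XRCC1-KO and -0.035 in APE1-KO. None had an unadjusted p under 0.05 in either. TREX1, the exonuclease that digests leaked DNA, had the smallest p of that list, at 0.33 in XRCC1-KO (interval -0.13 to 0.78; p = 0.144 in the authors' deposited table). VRK2, a kinase related to the BAF kinase VRK1, came next, at 0.072 in APE1-KO (p = 0.30 in the authors' deposited table).

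ESCRT proteins, which seal holes in the envelope, had 17 measured genes of 17, with medians of 0.013 in XRCC1-KO and 0.028 in APE1-KO. In the authors' deposited values for XRCC1-KO, CHMP4A, an ESCRT-III subunit, stood at 0.25 (p = 0.0357) and CHMP2A, another, at 0.24 (p = 0.0476), each with an adjusted p of 0.76; that is 2 of 17, where 5.96% of all genes had an unadjusted p under 0.05. With the trend removed they stood at 0.15 and 0.11, and neither had an unadjusted p under 0.05. No gene of this list had an unadjusted p under 0.05 in APE1-KO.

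Nuclear pore genes, 30 measured of 31, lay mostly below 0 in XRCC1-KO, 26 of the 30, with a median of -0.095. Below 0 lay 50.3% of all genes, and 55.4% of those with a mean of at least 5 log2 CPM. In APE1-KO 14 of the 30 lay below 0, with a median of 0.0060. NDC1, a transmembrane nucleoporin, stood at -0.29 (p = 0.0123) and NUP133, a scaffold nucleoporin, at -0.21 (p = 0.0414) in the authors' deposited values for XRCC1-KO, both with an adjusted p of 0.76. That is 2 of 30 with an unadjusted p under 0.05 and a value below 0, where 2.7% of all genes had one. With the length and GC trend removed the pore median was -0.063, 25 of 30 lay below 0, and NDC1 stood at -0.19 and NUP133 at -0.11, at unadjusted p of 0.0860 and 0.244. A single pore gene, 1 of 30, then had an unadjusted p under 0.05: NUP42, at -0.19 (p = 0.0408), against -0.061 in the authors' deposited table. No gene of these lists passed adjusted p 0.05 in either table.

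**Figure D4:**
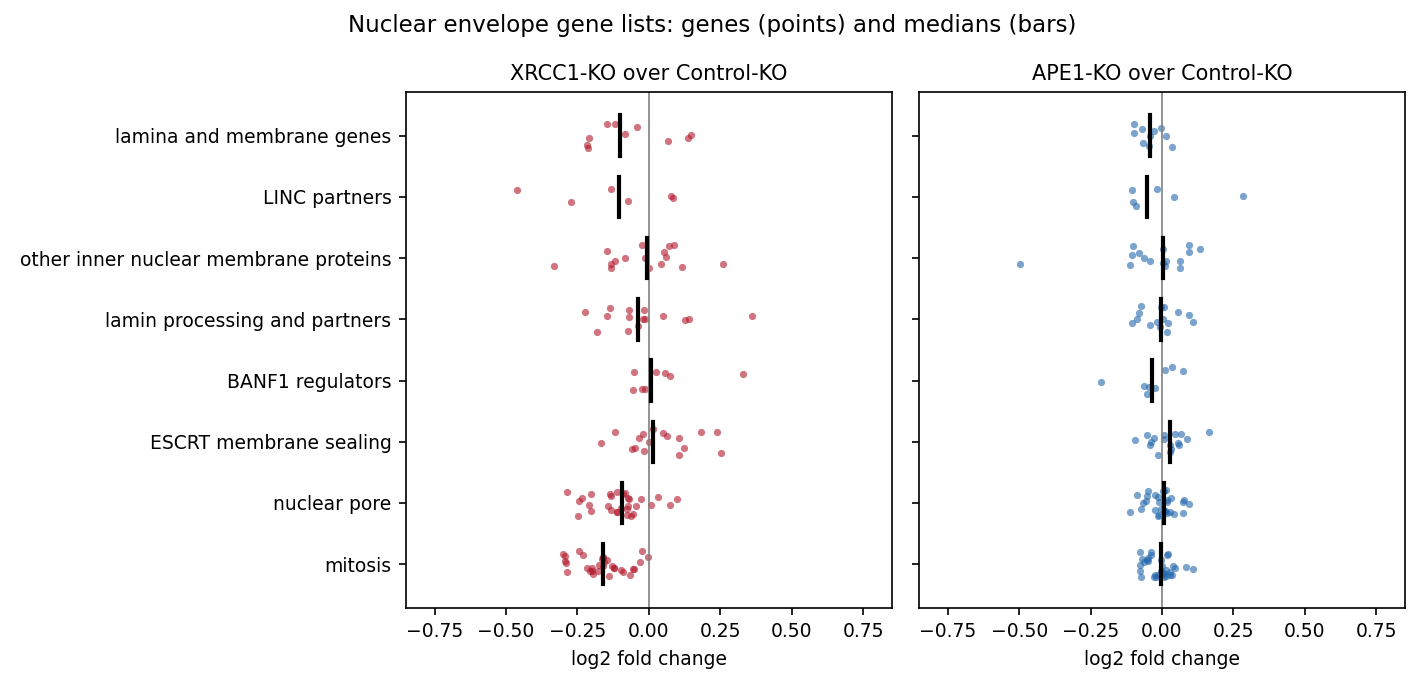
Log2 fold changes of single genes (points) and list medians (black bars) in XRCC1-KO over Control-KO (left) and APE1-KO over Control-KO (right), by list; points are spread vertically only to be seen. In XRCC1-KO 26 of 30 pore genes and all 32 mitosis genes lie left of 0, with medians of -0.095 and -0.16. Both medians are near 0 in APE1-KO. The lamina and membrane genes and the LINC partners each have a median of -0.10 in XRCC1-KO.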

How the data were processed

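Poly(A) RNA of 9 libraries was sequenced. The submitters' processing notes name Trim Galore, Salmon 1.4.0, edgeR and the build hg19, without roles or settings. RNA was column-purified and libraries were stranded, per the labels' protocols. Per the file headers, the authors' tables give for each gene a log2 fold change (knockout over Control-KO), a mean log2 CPM, an F score, a p-value, a false discovery rate and a −log10 p, all as deposited by the authors. No unit is attached to the F score in the authors' tables. How the authors filtered genes, normalised counts and set up the model is not given in the sources used here.

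Standard errors were recovered as the absolute log2 fold change over the square root of F, or from the other table where F was under 0.01. Intervals use Student's t with 15.2 degrees of freedom, the median solved from F and p. Differences between knockouts used both standard errors with no covariance, and Benjamini-Hochberg adjustment over 13051 genes. Lengths and GC content are medians over GENCODE release 29 basic transcripts, found for 12838 genes and all 10 members. The trend is an additive spline fitted by Huber regression (statsmodels 0.14.6, Python 3.11.15). The code was tested on simulated data. Depth per library is unknown.

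The members and lists were chosen with earlier results of these data known. All 10 members are named, with the targeted genes and, from the 6 other nuclear envelope lists, genes at an unadjusted p under 0.05 or, where a list had none, the 2 with the smallest p. CDKN1A, NUP42 and genes that overlap a member are outside that rule and were chosen after their values were seen. Alternatives were the trend removed, centring, other thresholds, abundance minimums, the standard error of a balanced design and each gene left out.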

Additional observations from a re-analysis of the deposited data

How the results depend on the processing

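No paired analysis was possible because the tables hold no values per library; for the same reason leaving out each replicate was not run. No gene of the set passed an adjusted p of 0.05 in either comparison or in their difference, also with the length and GC trend removed or with the standard error of a balanced design, under which SUN2 had an unadjusted p of 0.0476 (adjusted p = 0.73, and 5.49% of all genes under 0.05). At an unadjusted p under 0.01, 1 gene (LMNB2) was left in XRCC1-KO, and 0 passed the deposited adjusted p. With the trend removed the sign turned for EMD (-0.064) and LEMD3 (0.052) in XRCC1-KO and for LMNA (0.035) in APE1-KO, and none of the 3 was past a threshold. Leaving out each gene in turn kept the XRCC1-KO median between -0.12 and -0.084 and the APE1-KO median between -0.044 and -0.042. Centring on the median of all genes turned no sign. Among genes with a mean of at least 5 log2 CPM, 6.47% had an unadjusted p under 0.05 in XRCC1-KO, 3.51% had one with a value below 0, and 0.722% had one in APE1-KO. Per-gene standard errors of 0.07 to 0.11 set the limit.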
